A study of Mus musculus with 6 samples.

Results

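Late-closing regions were autosomal regions with at least 100 normalised counts in each of the libraries MEF day 0, day 8, day 9 and day 10, and fewer than 25 in iPSC. A normalised count is the number of ATAC-seq reads in a region divided by the size factor of its library. These cutoffs were met by 2122 of the 218231 autosomal regions (0.972%), in a table of 223596 regions in all. The rule used 5 of the 6 libraries, so the levels in those 5 are given as a description. The day 12 library had no part in the rule, and what the regions did at day 12 is the main result.

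The data came from female hybrid cells, the offspring of *Mus* mothers with an X-linked GFP reporter and *Cast* fathers. Mouse embryonic fibroblasts (MEFs) had been transduced with 2 lentiviruses, tetO-FUW-OSKM, which carries Oct4, Sox2, Klf4 and c-Myc under doxycycline control, and FUW-M2rtTA, which carries the transactivator that doxycycline needs. They were then sorted for cells in which the GFP-bearing X chromosome was inactive. MEF day 0 cells were taken at this sort, before induction. The remaining cells were reprogrammed with doxycycline and ascorbic acid in mouse embryonic stem cell medium with LIF. Intermediates positive for the surface marker SSEA1 were collected at days 8, 9, 10 and 12. The iPSCs were grown from picked colonies after withdrawal of both compounds. All 6 titles call the cells GFP-negative. Animal age is not given in the sources used here. SSEA1 sorting keeps the cells that have advanced, so each intermediate library describes a selected part of its culture, and the MEFs were not selected in this way.

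Each time point was 1 library, so no difference below has a replicate check and no p-value was computed. Intervals cover counting error only. The libraries held 22067333 to 32844411 reads in regions. MEF day 0 stood apart from the rest, with a size factor of 0.498 against 0.798 to 1.40, so that 1 of its reads counted as 2.01 normalised counts and the cutoff of 100 stood for 50 reads. In MEF day 0 low read numbers were even 1.53 times as often as odd, which occurs when both ends of a fragment are counted, and intervals would then be up to 1.41 times as wide.

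Reprogramming factors act on fibroblast chromatin in steps. Many enhancers that serve the fibroblast programme lose accessibility soon after Oct4, Sox2, Klf4 and c-Myc are expressed, while other sites stay open in intermediates and close only as the pluripotency network becomes self-sustaining. The regions described here follow the late course by construction. The table names a region by its chromosome and its row number, with no start or end, so no gene, motif or sequence is tied to a region here, and fibroblast markers could not be used to check the name "fibroblast regions". The values bear on it in part. The regions were open in MEFs, but 698 of them (32.9%) were higher at day 8 than in MEF day 0, against 49.8% of all autosomal regions and 19.6% of those open in MEF day 0 and at days 8 to 10. Falls over this step were counted where either library reached 50 normalised counts. At least 2-fold lower at day 8 were 926 regions (43.6%), against 31.7% and 57.9%. At least 4-fold lower were 499 (23.5%), against 18.9% and 18.8%. These counts rest on the size factor of MEF day 0. The direction of the median turned under other scalings, as given with the peaks by library.

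In MEF day 0 the regions ranged from 100.4 to 4819 normalised counts, with a median of 331 and an interquartile range of 171 to 707. The day 8 library gave a range of 100.5 to 1366 and a median of 191. For day 9 the range was 101 to 1060 and the median 211, and for day 10 the range was 100.3 to 1026 and the median 202. The median was thus nearly flat over days 8 to 10. The spread over regions was widest in MEFs, where the upper quartile was 4.13 times the lower, against 1.89 to 2.10 times at days 8 to 10. This was not particular to them. Regions open in the same early libraries with at least 100 in iPSC had 4.69 times against 3.06 to 3.25. All autosomal regions had 15.7 times against 4.8 to 5.1. At day 12 the regions ranged from 20.7 to 555 with a median of 113 and an interquartile range of 81.9 to 162. In iPSC they ranged from 1.25 to 23.8 with a median of 15.0, and 19 regions were at the lowest value, that of 1 read. No value in the table is 0, so the lowest value may stand for 0 reads or 1. Day 12 therefore lay between the earlier intermediates and iPSC. The median over all autosomal regions stayed between 40.2 and 45.2 in the 6 libraries. Counting error alone was modest at these levels, since a region at the day 12 median had 126 reads and an exact Poisson 95% interval of 94.5 to 135 normalised counts. In iPSC the median region had 12 reads, with an interval of 7.77 to 26.3.

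**Figure D1:**
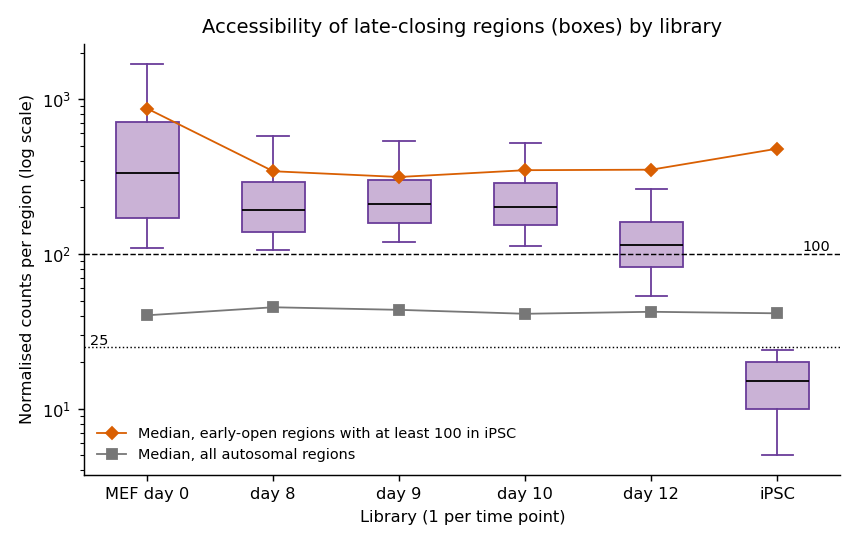
Normalised counts per region (log scale) in the 6 libraries, with 1 library per time point. Boxes give the median and quartiles of the 2122 late-closing regions and whiskers the 5th to 95th percentile, orange diamonds the median of the 23182 regions open in the same 4 libraries with at least 100 in iPSC, and grey squares the median of all autosomal regions; the dashed and dotted lines are the cutoffs of 100 and 25. The boxes fall from a median of 202 at day 10 to 113 at day 12 and 15.0 in iPSC, while the orange medians are 348, 350 and 479.

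The share of autosomal reads that lay in these regions needs no size factor. The MEF day 0 library had 2.16% of its autosomal reads there, with a 95% Wilson interval from 2.158% to 2.169%. The share was 2.02% for day 8 (2.019% to 2.029%), 2.33% for day 9 (2.324% to 2.334%) and 2.17% for day 10 (2.163% to 2.174%). The day 12 share was 1.29% (1.281% to 1.290%), and iPSC had 0.119% (0.117% to 0.120%). The fall between day 10 and day 12 was far outside these counting intervals. Per region, the late-closing set held 2.23 times its proportional share of autosomal reads at day 10, 1.32 times at day 12 and 0.122 times in iPSC. The day 12 library thus still held more reads in these regions than their number alone would give.

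At the edge of the rule, the members nearest the iPSC cutoff had 19 reads there (23.8 normalised counts) and the regions just outside had 20 reads (25.1). The 141 regions with 19 reads in iPSC had a day 12 median of 129 normalised counts and the 123 regions with 20 reads had 118. Of the 3 members nearest the cutoff by row number, all on chromosome 1, row 961 had 285 normalised counts at day 12, row 1354 had 60.3 and row 4515 had 132. The 3 nearest outside, rows 344, 751 and 2590 of the same chromosome, had 118, 393 and 159. At the other edge, members in rows 232, 11972 and 40935 had a lowest early value of 100.3, and rows 143085, 23832 and 27688 missed the rule with 99.9, 99.5 and 99.5.

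To ask whether the regions were still open at day 12, the cutoff of the rule was applied to the library it had not used. At least 100 normalised counts were left in 1264 of the 2122 regions (59.6%), against 23.3% of all autosomal regions and 92.2% of the 30062 autosomal regions open in MEF day 0 and at days 8 to 10. At least 200 were left in 283 regions (13.3%), against 11.0% and 64.8% in these 2 groups. At least 50 were left in 2040 regions (96.1%), against 43.8% and 99.6%. A single region (0.0471%) was below 25, against 29.2% and 0.00665%. All 2122 regions were higher at day 12 than in iPSC, against 46.7% and 37.4%, and 1875 (88.4%) were at least 4 times as high, against 11.3% and 10.6%, but the iPSC value was set by the rule and nothing is read from these last counts. The share with at least 100 depends on the scaling. For the same regions it was 78.0% with equal autosomal totals, 73.8% with quantile normalisation and 42.3% (897 of them) after every library was thinned to the lowest depth. Thinning lowered the medians of the regions in all 6 libraries, from 202 to 163 at day 10 and from 113 to 90.7 at day 12, so the fixed cutoff of 100 was stricter there. Whether more regions lay above 100 than below it at day 12 is thus set by the scale of the counts.

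The reduction was shared by nearly all regions. From day 10 to day 12 the level fell in 2116 of 2122 regions (99.7%), against 53.1% of all autosomal regions and 62.5% of those open in MEF day 0 and at days 8 to 10. The median log2 difference was -0.90, with an interquartile range of -1.14 to -0.65, and the median ratio of normalised counts was 0.535. A fall of at least 2-fold was seen in 798 regions (37.6%), against 7.30% of autosomal regions and 7.65% of those open early, where a 2-fold change was counted when either library reached 50 normalised counts. A fall of at least 4-fold was seen in 7 regions (0.330%), against 0.237% and 0.0299%. No region rose 2-fold, against 5.64% and 0.888%. Summed over the regions, day 12 held 0.537 times the normalised counts of day 10 (95% exact interval 0.535 to 0.539). Nearly all regions thus fell, most of them by less than 2-fold. The share with a 4-fold fall was close to that over all autosomal regions, and nothing is read from it. Since cutoffs on day 10 and iPSC chose the regions, a fall at day 12 was more likely than in an unselected region, and the shares are read beside the groups described next and not as a test. Bulk libraries cannot tell fewer cells with an open region from a lower accessibility in every cell.

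**Figure D2:**
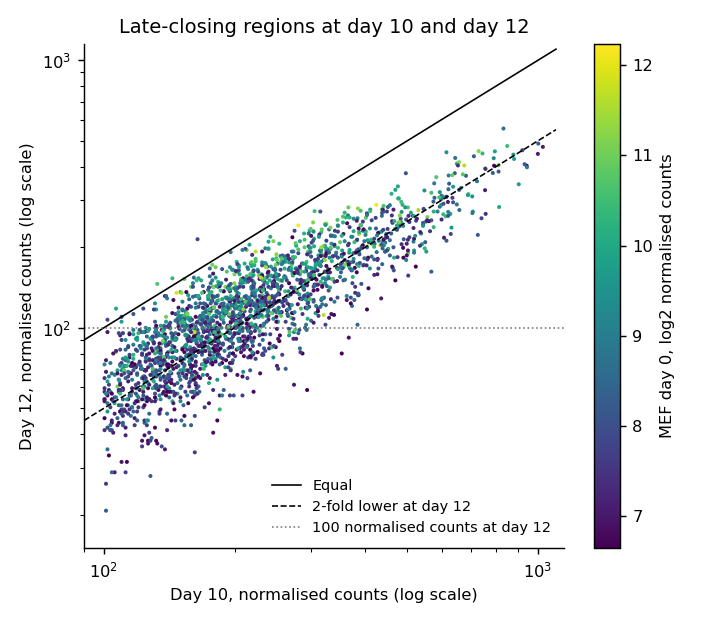
Normalised counts at day 12 against day 10 for the 2122 late-closing regions, both on log scales, each point a region coloured by its log2 normalised count in MEF day 0. Of the points, 2116 lie below the solid line of equality and 798 on or below the dashed line of a 2-fold fall; lighter points, with a higher MEF level, tend to lie nearer the line of equality.

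Between days 8 and 10, where the rule required at least 100 normalised counts in every library, the medians moved little. The median log2 difference of day 9 against day 8 was 0.11, and that of day 10 against day 9 was -0.07. Day 10 against day 8 gave 0.05, with 1164 regions (54.9%) higher. The other 958 (45.1%) were lower, against 55.2% of autosomal regions and 47.9% of those open early. A 2-fold fall was seen in 51 regions (2.40%), against 4.12% and 0.419%, and a 2-fold rise in 40 (1.89%), against 1.36% and 0.379%. The step from day 10 to day 12 was larger than these at the median. The lowest value before iPSC was at day 12 in 1690 regions (79.6%), against 17.9% and 34.8%. Because the rule kept MEF day 0 and days 8 to 10 at 100 or more, any region below 100 at day 12 was lowest there by construction. Nothing is read from this share. A fall at every step from day 8 to iPSC was seen in 456 regions (21.5%), against 10.4% and 7.05%. With iPSC held below 25 by the rule, day 12 was above iPSC in all 2122 regions. The last step was thus given, and this share is a description only. Day 12 came 2 days after day 10, while the earlier intermediates were 1 day apart.

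How far along the way to iPSC the regions had come depends on the scale. On the log2 scale, day 12 had covered a median of 22.5% of the distance from day 10 to iPSC, with an interquartile range of 16.5% to 29.7%. In normalised counts it had covered 49.8%, with an interquartile range of 39.3% to 58.7%. The remaining fall from day 12 to iPSC had a median log2 difference of -2.94. The rule set both ends of this distance, day 10 and iPSC, so these values are a description and nothing is read from them.

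To set the late-closing regions beside others that passed the same early cutoffs, the 30062 regions open in MEF day 0 and at days 8 to 10 were grouped by iPSC level. Their early levels were not matched. Late-closing regions had medians of 331 normalised counts in MEF day 0 and 202 at day 10. Regions with at least 100 in iPSC had 869 and 348. The median log2 difference from day 10 to day 12 was -0.90 in the 2122 late-closing regions. It was -0.82 in the 2214 regions with 25 to 50 normalised counts in iPSC, -0.67 in the 2544 with 50 to 100 and -0.31 in the 3887 with 100 to 200. It was 0.04 in the 5918 regions with 200 to 400 and 0.02 in the 13377 with 400 or more. The order of these medians followed the order in iPSC, in steps, up to the group with 200 to 400 normalised counts. Neighbouring groups overlapped in their interquartile ranges. Against all 23182 regions with at least 100 in iPSC, the gap in medians was -0.88. Late-closing regions and those with 25 to 50 in iPSC largely overlapped, with interquartile ranges of -1.14 to -0.65 and -1.05 to -0.57.

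**Figure D3:**
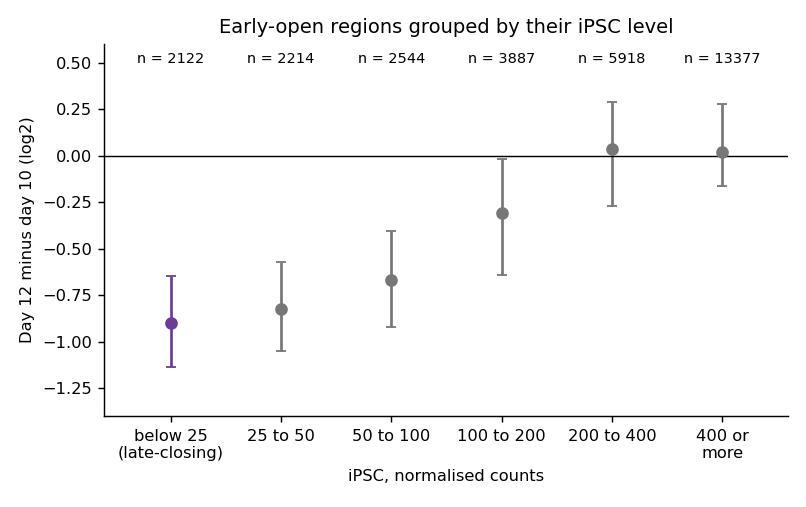
Log2 difference of day 12 from day 10 in regions with at least 100 normalised counts in MEF day 0 and at days 8, 9 and 10, grouped by normalised counts in iPSC. Points are medians over regions, bars run from the lower to the upper quartile, n is the number of regions, and the late-closing regions are in purple; the medians rise from -0.90 to 0.04 from the lowest group to that of 200 to 400.

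The gap was also seen among regions with like day 10 levels. The groups were set apart by their iPSC level, which makes a gap at day 12 more likely. These values are therefore a description and not a separate check. Among regions with 100 to 150 normalised counts at day 10, the 491 late-closing ones had a median of 69.3 at day 12 and the 2878 with at least 100 in iPSC had 155. Between 200 and 300 at day 10 the medians at day 12 were 128 (603 regions) and 259 (4101 regions). At 500 or more they were 288 (122 regions) and 714 (8009 regions). In each of the 5 ranges of day 10 level the late-closing regions had the lower day 12 median.

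The size of the fall from day 10 to day 12 went with the level in fibroblasts. The late-closing regions were ranked by their MEF day 0 level and divided into 4 classes of about equal size. In the lowest class (531 regions, up to 171 normalised counts in MEF day 0) the median went from 183 at day 10 to 92.7 at day 12, a median log2 difference of -0.99, and 43.3% of regions kept at least 100. In the classes between them the log2 differences were -0.95 and -0.85. In the highest class (529 regions, above 707 in MEF day 0) the median went from 226 to 142, a median log2 difference of -0.74, and 76.4% kept at least 100. Regions that had been more open in MEFs had thus fallen less from day 10 to day 12. Counted from MEF day 0, the level that defined the classes, the order was the reverse. The median went from 129 to 92.7 in the lowest class and from 1147 to 142 in the highest. Day 8 levels ran the other way, with medians of 206, 193, 183 and 183 from the lowest to the highest class. Ranked by day 8 instead, the 4 classes had median log2 differences at day 12 of -0.65, -0.83, -0.94 and -1.07 from the lowest to the highest, a wider range than by MEF day 0. Regions more open at day 8 had thus fallen more from day 10 to day 12.

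The same order held among regions with like day 10 levels. With 100 to 150 normalised counts at day 10, the log2 difference at day 12 was -0.91 in the lowest class by MEF day 0 (163 regions) and -0.66 in the highest (75 regions). With 200 to 300 it was -0.99 (137 regions) and -0.69 (169 regions). With 300 to 500 it was -1.08 (71 regions) and -0.79 (110 regions). In all 5 ranges of day 10 level the highest class fell less at the median. The interquartile ranges of the lowest and highest classes overlapped in each. The highest class also had the lower day 8 median in all 5 ranges, such as 180.1 against 253 between 200 and 300 at day 10, and the part of day 8 in this order was not tested.

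Regions outside the rule continued the series. There were 6730 autosomal regions open at days 8 to 10 and below 25 in iPSC, whatever their MEF level. Those below 25 normalised counts in MEF day 0, which opened only in intermediates, numbered 2757 and had a median log2 difference of -1.24 at day 12. Those with 25 to 50 had -1.13 (1062 regions) and those with 50 to 100 had -1.05 (789 regions). The late-closing regions followed with -0.99 at 100 to 200 (650 regions), -0.92 at 200 to 400 (563 regions), -0.84 at 400 to 800 (446 regions) and -0.72 at 800 or more (463 regions). The share with at least 100 normalised counts at day 12 rose over the same 7 groups from 19.7% to 78.6%. The median at day 12 was 67.5 in the regions that opened only in intermediates and 149 in the late-closing regions with the highest MEF levels, with day 10 medians of 153 and 229. The groups differed before day 12 as well. From day 8 to day 10 the regions opened only in intermediates had a median log2 difference of -0.52, against 0.05 in the late-closing regions.

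**Figure D4:**
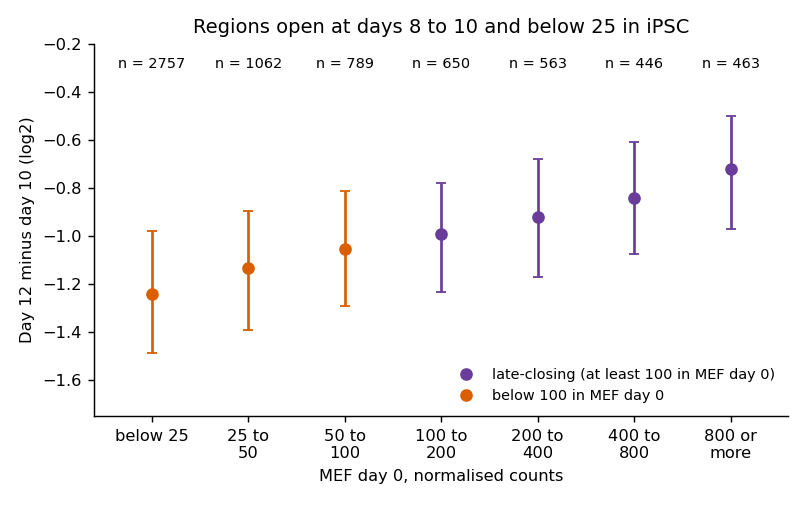
Log2 difference of day 12 from day 10 in the 6730 autosomal regions with at least 100 normalised counts at days 8, 9 and 10 and fewer than 25 in iPSC, grouped by normalised counts in MEF day 0. Points are medians over regions, bars run from the lower to the upper quartile and n is the number of regions; the median rises in every group, from -1.24 below 25 (orange) to -0.72 at 800 or more (purple, late-closing).

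By the library in which they were highest, 1280 late-closing regions (60.3%) peaked in MEF day 0, against 36.0% of autosomal regions and 70.6% of those open early. A peak at day 8 was seen in 398 (18.8%), against 20.3% and 9.59%. A peak at day 9 was seen in 238 (11.2%), against 8.96% and 3.30%, and one at day 10 in 206 (9.71%), against 5.44% and 4.07%. The rule used these libraries and kept iPSC low, so nothing is read from these counts. Regions with a peak in MEF day 0 had a median of 586 normalised counts there, 162 at day 8 and 112 at day 12. Those with a peak at day 8 had 155 in MEF day 0 and 338 at day 8, and their log2 difference from day 10 to day 12 was -1.17 against -0.78 for those with a peak in MEF day 0. Those with a peak at day 10 had medians of 259.8 there and 147 at day 12, a log2 difference of -0.91. The placing of MEF day 0 depends on its size factor. With equal autosomal totals 32.5% of the same regions peaked in MEF day 0, and the median log2 difference from MEF day 0 to day 8 turned from -0.70 to 0.36. With quantile normalisation the values were 29.3% and 0.26. Whether these regions were on the whole more open in MEFs than at day 8 therefore depends on the scaling, while the order of regions within the MEF library does not depend on the scaling.

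Regions that changed between days 8 and 10 are described here by values the rule used, and the split itself fixes much of their day 10 level. The 51 regions with a fall of at least 2-fold from day 8 to day 10 had medians of 325, 203, 141 and 67.5 normalised counts in the 4 intermediate libraries. The 40 regions with a rise of at least 2-fold had 122, 221, 276 and 173. Their log2 differences from day 10 to day 12 were -1.23 and -0.71, and both differences share the day 10 library with the split. Both kinds of region were below 25 in iPSC, with medians of 16.3 and 15.0.

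Across the late-closing regions, MEF day 0 and day 8 levels were nearly unrelated, with a Pearson r of -0.06 (Spearman rho -0.07). The r with MEF day 0 was 0.09 for day 9 (rho 0.09), 0.15 for day 10 (rho 0.15) and 0.30 for day 12 (rho 0.29). Between day 10 and day 12 it was 0.86 (rho 0.85), and between day 12 and iPSC 0.14 (rho 0.13). In the 23182 regions with at least 100 in iPSC the r between MEF day 0 and day 8 was 0.60 (rho 0.62). The log2 difference from day 10 to day 12 had an r of 0.29 with the MEF day 0 level in late-closing regions (rho 0.29) and of -0.03 in the regions with at least 100 in iPSC (rho -0.08). With the day 8 level it had an r of -0.44 in late-closing regions (rho -0.46) and likewise -0.44 in the regions with at least 100 in iPSC (rho -0.45). With the log2 difference from day 8 to day 10, which shares day 10 with opposite sign, it had an r of 0.44 (rho 0.45) in late-closing regions and 0.14 (rho 0.11) in the others. These are descriptions across log2 values of 2122 or 23182 regions of the same 6 libraries. The regions share library and depth, and the cutoffs narrow the range of each level.

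The single regions with the extreme values were chosen by rule. Row 114469 on chromosome 2 had the highest day 12 level, with 432, 575, 781, 832, 555 and 11.3 normalised counts in the order MEF day 0, days 8, 9, 10 and 12, iPSC. It rose up to day 10, and its day 12 level was 0.667 times that of day 10 (95% exact interval 0.603 to 0.738). Row 208745 on chromosome 9 had 299, 853, 852, 1001, 488 and 21.3 in the same order. Row 196407 on chromosome 8 had 1462, 704, 660, 849, 478 and 16.3. Row 103555 on chromosome 18 had 141, 992, 924, 1026, 474 and 18.8. Of the 5 regions with the highest day 12 level only row 196407 had its maximum in MEFs. That placing rests on the size factor of MEF day 0. The last of these 5 regions, row 157381 on chromosome 5, had 195, 752, 817, 920, 461 and 10.03. Its day 12 level was 0.501 times that of day 10 (0.451 to 0.556). The maximum of the other 4 was at day 10.

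At the other end, row 202119 on chromosome 8 was the only late-closing region below 25 at day 12. It had 291, 268, 141, 101, 20.7 and 3.76 normalised counts in the same order, so its day 12 level was 0.205 times that of day 10 (95% exact interval 0.125 to 0.321). It fell at every step in these counts, but the small first step, from MEF day 0 to day 8, rests on the size factor of MEF day 0. Row 52945 on chromosome 13 had 191, 168, 127, 101, 26.1 and 6.27, and row 83932 on chromosome 16 had 203, 196, 149.9, 112, 28.8 and 5.01. Row 70675 on chromosome 15 had 287, 279.6, 164, 128, 27.9 and 16.3. The 5 regions with the lowest day 12 level were all falling from day 8 on. In row 70675 day 12 was 1.71 times iPSC (0.871 to 3.57), an interval that included 1. The same held for row 136515 on chromosome 3, with 129, 201, 171, 106, 28.8 and 21.3 and a ratio of 1.35 (0.729 to 2.60).

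Among the regions with the highest mean level over MEF day 0 and days 8 to 10, row 147598 on chromosome 4 had 1851, 987, 796, 811, 405 and 17.5 normalised counts in the same order. Row 193226 on chromosome 7 had 524, 1366, 1060, 943, 398 and 13.8. Row 100587 on chromosome 18 had 1016, 962, 824, 813, 283 and 17.5, and its ratio of day 12 to day 10 of 0.347 (0.305 to 0.395) was the lowest of these 5. The other two, row 190765 on chromosome 7 and row 51790 on chromosome 13, had 428 and 394 at day 12. All 5 were far above the cutoff of 100 at day 12, between 283 and 428.

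The largest fall to iPSC was that of row 209535 on chromosome 9, with 249, 649, 521, 568, 252 and 1.25 normalised counts, of which the last is the lowest value of the library. Taken as 1 read, it put the day 12 level at 201 times that in iPSC, with a 95% exact interval of 35.8 to 7972. Row 61262 on chromosome 13 had 1469.9, 322, 535, 484, 295 and 2.51. It lost accessibility by day 8, regained part of it and still had 0.610 times its day 10 level at day 12 (0.532 to 0.698). The other 3, rows 145007, 104287 and 53900 on chromosomes 4, 18 and 13, had 85.5 to 96.3 at day 12 and the lowest value in iPSC. None of these 5 was among the 5 lowest at day 12. Lists of 5 out of 2122 regions would seldom share a member, so nothing is read from this.

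**Figure D5:**
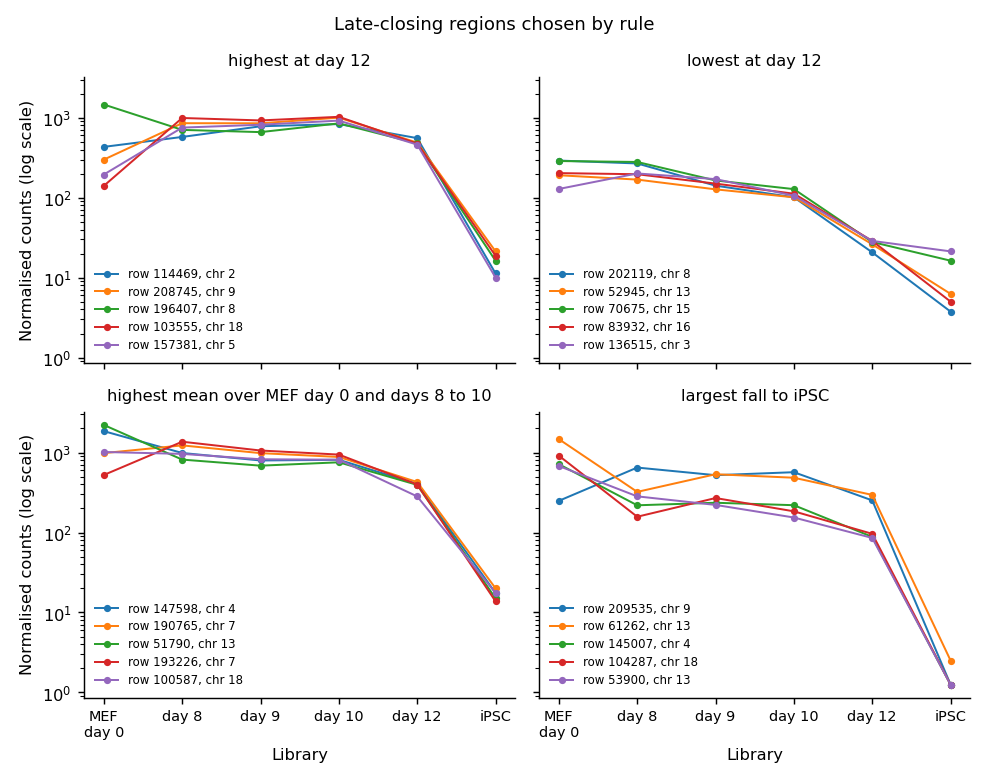
Normalised counts (log scale) of the 20 late-closing regions chosen by rule in the 6 libraries, 5 in each panel, named by row number and chromosome. The 5 regions highest at day 12 lie between 461 and 555 there, and the 5 lowest between 20.7 and 28.8, below their own day 10 levels of 101 to 128.

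The regions were spread over all 19 autosomes, with 61 on chromosome 19 to 192 on chromosome 2. As a share of the regions of a chromosome they made up 0.833% on chromosome 14 to 1.14% on chromosome 13. As a share of the regions open in MEF day 0 and at days 8 to 10 they made up 5.50% on chromosome 11 to 9.45% on chromosome 13. The fall at day 12 was seen on every autosome, with a median log2 difference between -0.97 on chromosome 11 and -0.80 on chromosome 10. The share with at least 100 normalised counts at day 12 was 52.3% on chromosome 6 to 66.3% on chromosome 16. In the row order of the table, 159 late-closing regions (7.49%) had another one in an adjacent row, against 1.87% of the other autosomal regions and 2.32% of the others open early. The longest run was 3 rows, on chromosome 19 from row 110602. The table does not state that its rows follow position on the chromosome.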

How the data were processed

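ATAC-seq was performed by the Omni-ATAC protocol on 6 libraries, 1 per time point. Per the study's methods, the authors aligned reads to GRCm38/mm10 with the ENCODE ATAC-seq pipeline, joined peaks and alignments into 1 count matrix with DiffBind 3.8, and deposited log2 values of counts normalised with DESeq2 1.21.22, not split by allele. The values were turned back into normalised counts (2 to the power of the value, minus 1). In each library 100% of them were whole multiples of the lowest value within 0.001, which gave reads and size factors. The libraries held 22067333 to 32844411 reads. No count test was run, since every group had 1 library.

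Members and all groups of regions were chosen with earlier results of these data known. Regions named singly were the 5 highest and the 5 lowest at day 12, the 5 with the highest mean log2 value over MEF day 0 and days 8 to 10, the 5 with the largest log2 fall from that mean to iPSC, and the 3 nearest each cutoff on either side. Log2 differences used a pseudocount of 1. Intervals are 95% Wilson for shares, exact Clopper-Pearson for ratios and exact Poisson for counts, and cover counting error only, since reads of amplified fragments are not independent molecules. Alternatives were other cutoffs, equal autosomal totals, quantile normalisation, thinning to the shallowest library and a pseudocount of 10. X- and Y-linked regions were left out of the rule. Scripts ran in Python 3.11.15 with numpy 2.4.6, pandas 2.3.3, scipy 1.17.1 and matplotlib 3.10.9, and were tested on simulated data.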

Additional observations from a re-analysis of the deposited data

Results flagged for a closer look

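The rule covered autosomes only. On the X chromosome, which the rule set aside, 13 of 5357 regions (0.243%) met the same cutoffs, against 0.972% of autosomal regions. These 13 made up 2.33% of the 558 X-linked regions open in MEF day 0 and at days 8 to 10, against 7.06% on autosomes. Their median was 201 normalised counts at day 10, 109.8 at day 12 and 17.5 in iPSC, and 7 of the 13 kept at least 100 at day 12. Their day 12 levels ranged from 45.9 to 459.9, and the median log2 difference from day 10 to day 12 was -0.88, against -0.90 on autosomes. The difference between X-linked and autosomal regions was not tested.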

How the results depend on the processing

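In none of the alternatives did the fall at day 12 change direction. All of them chose regions by a high day 10 and a low iPSC value, which makes a fall at day 12 more likely. The unchanged direction is therefore not a separate check. With open cutoffs of 50 and 200 the number of regions was 6693 and 527, the median log2 difference from day 10 to day 12 was -0.79 and -0.99, and the share with at least 100 normalised counts at day 12 was 27.7% and 93.2%. With iPSC cutoffs of 10 and 50 these were 421 and 4336 regions, -0.92 and -0.85, and 48.2% and 64.1%. Equal autosomal totals and quantile normalisation, with regions chosen anew, gave -0.68 and -0.76, and 77.4% and 72.2%, and 1490 and 1577 of the 2122 regions were chosen again. Thinned reads gave -0.92 and 54.1%, a pseudocount of 10 gave -0.84, and a MEF day 0 cutoff of 200, added after seeing the data, gave -0.83 and 66.9%. The gap to the regions with at least 100 in iPSC was -0.91 with the open cutoff of 200, -0.90 and -0.83 with the iPSC cutoffs of 10 and 50, -0.82 with equal totals, -0.94 with quantile normalisation, -0.82 with the pseudocount of 10 and -0.82 with the MEF day 0 cutoff of 200. Other cutoffs choose other regions by construction. The cause of the other shifts was not tested. The all-autosomal median difference from day 10 to day 12 was -0.07, and 0.07 with equal totals. Relative to it the late-closing regions were at -0.83 and -0.75. The gap between the highest and lowest class by MEF day 0 was 0.25, and 0.21 to 0.32 under the alternatives. No paired analysis was possible because each time point had 1 library, and for the same reason no library could be left out as a replicate. Depth limits iPSC most, where 25 normalised counts are 19.9 reads.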
